A study of Mus musculus with 24 samples.

Results

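The 37 genes described here encode the response of cells to interferon and the presentation of antigen by major histocompatibility complex (MHC) class I and class II molecules. They were chosen by name, each gene was read from the probe set that the platform annotation ties to that gene alone and that had the highest mean log2 value, and 35 of the 37 were measured in this way. Of these, 29 are interferon-stimulated genes outside MHC class II and 6 belong to MHC class II. All 35 passed the filter on low values and stand among 12336 genes tested, of 18193 with such a probe set. Isg15 and Ifi44 were not analysed here.

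Expression was measured in mammary gland tissue of nulliparous Balb/c mice whose ovaries had been removed at 6 weeks of age and which had then rested for 2 weeks. Mice received daily subcutaneous injections of 1 mg progesterone (P4) in 100 µl sesame oil, or 100 µl of the oil alone, and tissue was taken at 4, 16, 28 or 76 h, counted from the first injection. This made 8 groups of 3 Affymetrix Mouse Genome 430 2.0 arrays, each array from the pooled RNA of 5 mice, 15 mice per group. The comparison asks what progesterone changed relative to the vehicle at each time. All groups, oil included, lacked ovaries. With injections given daily, the mice killed at 28 and 76 h would have received more than 1, so that time, number of injections and hours since the last injection cannot be told apart.

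Interferons bind receptors that activate STAT and IRF transcription factors, which switch on genes for antiviral proteins, for GTPases that act against intracellular pathogens, and for the immunoproteasome and peptide transporters that supply MHC class I. MHC class II presents peptides from endocytosed proteins to CD4 T cells, is found mainly on B cells, dendritic cells and macrophages, and depends on the transactivator CIITA, itself inducible by interferon gamma. The mammary gland holds such leukocytes among its epithelium, adipocytes and stroma.

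The 24 arrays correlated within their groups with r from 0.965 to 0.993, and their median intensities lay between 62.8 and 70.2. The oil groups themselves differed between times for 12.2% of all genes tested, so each time was compared with its own oil arrays. Of the tissue markers, all 5 adipocyte markers and 8 of 9 luminal markers were above the array median on all 24 arrays. The basal markers Krt15, Krt17 and Trp63 were above it on only 7, 10 and 14 arrays. Skeletal muscle markers were also present, and 5 of 6 differed between the oil groups (Ckm spanned 721 to 6726 over all arrays). All p-values measure the spread between pools of 5 mice. The 4 h progesterone arrays split 1 against 2 in a way that bears on these genes: on the third the MHC class II members lay a median of 0.18 above their mean over 24 arrays on the log2 scale, against -0.12 and -0.14 on the other 4 h progesterone arrays. Pan-leukocyte markers (Ptprc, Coro1a, Laptm5, Cd52, Cd53, Rac2) did likewise, at 0.13 against -0.32 and -0.38. An RNA control split the same way: the log2 ratio of the 3′ to the 5′ Gapdh control probes was 0.253 and 0.343 on the first and second 4 h progesterone arrays and 0.001 on the third, which alone lay in the range of the 4 h oil arrays (-0.174 to 0.032). The main counts at 4 h are given with and without the third array. In bulk tissue, fewer cells of a type and less RNA per cell cannot be told apart.

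Promoter sequences of 6 members are shown, picked with the test results known. Of these, 3 carry a Y box and passed the test as lower after progesterone. The other 3 carry interferon-stimulated response elements and did not pass. The 2 sets differ in passing the test and not always in the size of the difference. The mean difference of Bst2, which did not pass, lay below those of H2-Aa and H2-Eb1. Gbp3 and Igtp, not shown, also carry the response element and passed as lower. The sequences come from RefSeq (GRCm38.p6) and give the 200 bases before the start of the gene, 5′ to 3′ on the gene's strand. H2-Aa and H2-Eb1 encode the alpha and beta chains of class II molecules and lie at chr17:34287824-34288023 (minus strand) and chr17:34305667-34305866 (plus strand). Psmb9 encodes an immunoproteasome subunit and lies at chr17:34187331-34187530 (minus strand). Capitals mark the Y box, CTGATTGG, an inverted CCAAT box known from class II promoters.
H2-Aa: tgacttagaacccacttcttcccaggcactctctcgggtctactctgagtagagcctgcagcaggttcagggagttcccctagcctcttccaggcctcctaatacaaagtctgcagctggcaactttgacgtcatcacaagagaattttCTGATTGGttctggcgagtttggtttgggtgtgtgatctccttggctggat
H2-Eb1: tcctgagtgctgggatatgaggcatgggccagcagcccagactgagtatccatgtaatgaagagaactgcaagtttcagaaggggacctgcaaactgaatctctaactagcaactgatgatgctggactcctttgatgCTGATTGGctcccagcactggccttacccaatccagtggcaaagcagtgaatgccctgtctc
Psmb9: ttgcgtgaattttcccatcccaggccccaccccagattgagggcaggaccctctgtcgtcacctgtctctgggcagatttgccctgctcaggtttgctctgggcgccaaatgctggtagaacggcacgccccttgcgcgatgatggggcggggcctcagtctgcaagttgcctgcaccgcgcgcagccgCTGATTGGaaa
Ifit1 and Ifit3 encode proteins that recognise foreign RNA and lie at chr19:34640689-34640888 and chr19:34583329-34583528 (plus strands). Bst2 encodes tetherin, which holds budding virus at the cell surface, and lies at chr8:71537473-71537672 (minus strand). Capitals mark the interferon-stimulated response element, searched as GAAA, any 2 bases and GAAA again. In Ifit1 and Ifit3 it stands on the other strand and so reads TTTC, any 2 bases and TTTC, and the capital run in Bst2 is a pair of overlapping matches.
Ifit1: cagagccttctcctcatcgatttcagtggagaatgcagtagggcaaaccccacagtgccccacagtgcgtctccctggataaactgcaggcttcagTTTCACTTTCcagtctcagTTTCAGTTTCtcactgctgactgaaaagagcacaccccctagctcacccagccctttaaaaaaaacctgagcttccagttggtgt
Ifit3: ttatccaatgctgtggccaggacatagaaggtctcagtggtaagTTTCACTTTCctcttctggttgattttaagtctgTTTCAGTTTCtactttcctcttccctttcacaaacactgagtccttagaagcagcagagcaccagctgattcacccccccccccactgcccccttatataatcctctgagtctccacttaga
Bst2: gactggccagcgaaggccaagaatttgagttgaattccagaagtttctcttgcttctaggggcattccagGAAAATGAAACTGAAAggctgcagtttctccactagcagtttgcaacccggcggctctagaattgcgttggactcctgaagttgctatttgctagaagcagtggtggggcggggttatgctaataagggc

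Averaged over the 4 times, 18 of the 35 members fell after progesterone and none rose (called in limma at an adjusted p under 0.05), where 12.5% of all genes were called, 6.65% lower and 5.83% higher. All 6 MHC class II members fell, as did 5 of 6 genes of class I processing (Psmb8, Psmb9, Tap1, Tap2 and Tapbp), 4 of 5 transcription factors (Irf1, Irf7, Irf8 and Irf9), 2 of 4 GTPases (Gbp3 and Igtp) and 1 of 12 antiviral effectors (Ifi35). Neither RNA sensor was called. The differences were small: the median over the 29 interferon-stimulated members was -0.16 and over the 6 class II members -0.16 on the log2 scale, beside -0.01 over all genes. The mean difference was below 0 in 30 of 35 members (85.7%, against 55.1% of all genes). Without the 76 h arrays the count was 4 (Irf8, Psmb8, Psmb9 and H2-DMa), where 2.86% of all genes were called.

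At single times fewer members passed. None was called at 4, 16 or 28 h, where limma called 0.186%, 0.308% and 2.54% of all genes, of which 0.0567%, 0.203% and 0.592% lower. The members with an unadjusted p under 0.05 numbered 12, 8 and 12 at these times, all of them lower after progesterone, and 9.17%, 13.1% and 5.48% of all genes were lower at that unadjusted level. At 76 h 5 of 35 members were called, all lower (Cd74, H2-Aa, H2-Ab1, H2-Eb1 and Oasl1), beside 17.7% of all genes called and 6.67% called lower. The calls were 4 of the 6 class II members (66.7%) and 1 of the 29 interferon-stimulated members (Oasl1, 3.45%). The share for the interferon-stimulated members was thus below that of all genes called lower.

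The direction was shared by more members than were called. The progesterone mean lay below the oil mean in 26 of 35 members at 4 h, 31 at 16 h, 28 members at 28 h and 30 members at 76 h, beside 52.4%, 64.7%, 49.1% and 46% of all genes. It lay below at all 4 times in 19 members (54.3%), beside 11.4% of all genes. At 76 h all 3 progesterone arrays lay below all 3 oil arrays in 22 members (62.9%), against 19% of all genes. At 28 h this held for 11 members (31.4%, against 5.24%). Of these, 5 were of class II, whose median difference at 28 h was smaller in size against the oil arrays of other times. At 4 and 16 h the shares, 14.3% and 17.1%, were near those of all genes, 12.8% and 11.7%. Without the third 4 h progesterone array the mean lay below oil at 4 h in 25 members, beside 50.5% of all genes, and both remaining progesterone arrays lay below all oil arrays in 15 (42.9%), beside 23.7%. The opposite order, all progesterone arrays above all oil arrays, was seen in 2 members at 4 h (Oasl2 and Gbp3), 1 at 16 h (Mx2), 1 at 28 h (Rsad2) and 1 at 76 h (Ddx58), against 6.12%, 5.37%, 6.8% and 25.7% of all genes.

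**Figure D1:**
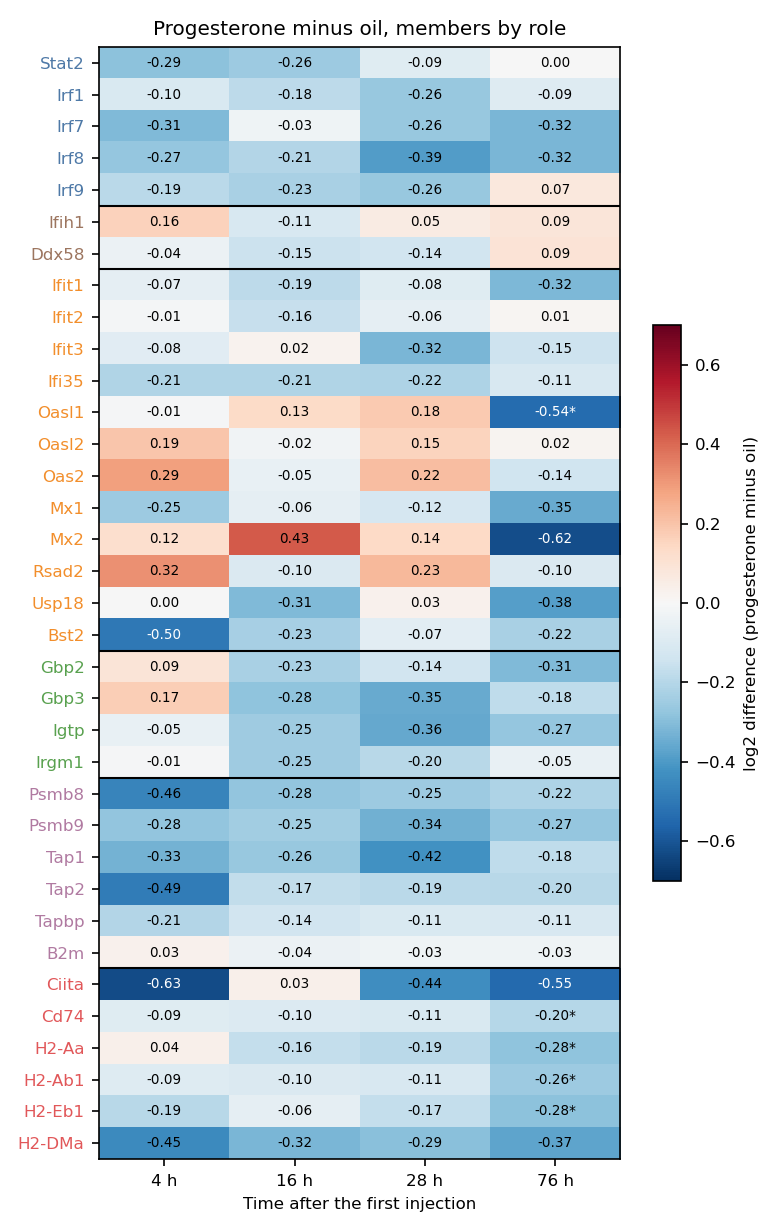
Log2 difference between progesterone and oil (3 arrays each) for the 35 measured members at each time, with gene names grouped and coloured by role and an asterisk at an adjusted p under 0.05. Most cells are blue, that is below 0, and the 5 asterisks all stand at 76 h, 4 of them in the MHC class II block at the bottom.

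MHC class II was the role group in which every member was called in the mean over times, and it held 4 of the 5 calls at 76 h. There the class II alpha chain gene H2-Aa read 6242, 6589.6 and 6381 on the oil arrays and 5161, 5564 and 5069.7 after progesterone, in linear intensity. All progesterone arrays were lower than all oil arrays, and the level was 82.2% of oil (log2 difference -0.28 ± 0.06 SE, adjusted p = 0.00265). H2-Ab1, which encodes the beta chain paired with H2-Aa, read 5189.9, 5229 and 5340.2 with oil and 4181, 4472 and 4557 with progesterone, 83.8% of oil (-0.26 ± 0.06 SE, adjusted p = 0.00536). The groups did not overlap for this gene either.

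H2-Eb1, the beta chain gene of the second class II molecule, read 4545, 4778 and 4966 with oil and 3700.1, 3964 and 4068 with progesterone at 76 h, 82.1% of oil (-0.28 ± 0.08 SE, adjusted p = 0.0167). Cd74 encodes the invariant chain, which fills the class II groove until peptide is loaded, and it read 8133, 8301 and 8608 with oil and 6708, 7347 and 7780.1 with progesterone, 87.1% of oil (-0.20 ± 0.06 SE, adjusted p = 0.0286). Both genes were lower on every progesterone array than on any oil array. The calls for H2-Aa and H2-Ab1 held without any 1 of the 24 arrays. H2-Eb1 lost its call without the second or the third oil array or the first progesterone array of 76 h, and Cd74 without any of these or the second progesterone array.

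Ciita, the transactivator of the class II genes, and H2-DMa, a chain of the peptide-loading catalyst DM, were not called at 76 h. Ciita read 162, 192 and 159 with oil and 121, 124 and 106 with progesterone (-0.55 ± 0.20 SE, adjusted p = 0.0681). H2-DMa read 683, 730.4 and 751 and 522, 609.7 and 546 (-0.37 ± 0.14 SE, adjusted p = 0.0733). For both genes the groups did not overlap at 76 h.

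Over all times Ciita spanned 130.0 to 295 (median 200.3) on the 12 oil arrays and 101 to 233 (median 173) on the 12 progesterone arrays, and the mean of its 4 differences, -0.39 ± 0.10 SE (adjusted p = 0.0114), was the lowest among the members. H2-DMa spanned 683 to 975 (median 832) with oil and 522 to 821 (median 609) with progesterone, with a mean difference of -0.36 ± 0.07 SE (adjusted p = 0.00135). In both genes the treatments overlapped over all arrays, and for H2-DMa the progesterone median lay below the lowest oil array. The other 4 class II members had mean differences from -0.18 (H2-Eb1) to -0.12 (Cd74), with adjusted p from 0.00253 (H2-Aa) to 0.0109 (Cd74).

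At 4 h the class II genes depended on the array named above. Ciita read 183, 195 and 253 with oil and 119.9, 101 and 202 with progesterone, and H2-DMa read 772, 836 and 975 and 569, 533 and 821. The third progesterone array lay within the oil range in both and the other 2 below it. The class II median was -0.14 with that array and -0.245 without it. With it none of the 35 members was called at 4 h, and without it 6 were lower (Ciita, H2-DMa, H2-Eb1, Psmb8, Tap2 and Bst2), where 3.87% of all genes were called and 3.02% called lower. An unadjusted p under 0.05 with a lower value was seen in 12 members with it and 14 without it, beside 9.17% and 12.1% of all genes. The 2 arrays behind the 6 calls are those with the high Gapdh ratio, and its part in them was not tested.

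For H2-Aa the earlier times were nearer to oil. At 4 h it read 7099, 7672 and 6956 with oil and 7428, 7491 and 7323 with progesterone (log2 difference 0.04), and at 16 h 6846, 6508 and 7389 and 5692, 6087 and 6754 (-0.16). At 28 h it read 7504, 7468 and 7556 and 6513, 7142 and 6168 (-0.19). The groups overlapped at 4 and 16 h and not at 28 h, and a change of the progesterone effect with time did not pass (adjusted p = 0.0945, moderated F-test). Probe sets of one gene did not always read alike. A further probe set of H2-Aa gave -0.15 at 4 h and -0.29 at 76 h (adjusted p over probe sets 0.29 and 0.00166), and another gave -0.46 and -0.34 (0.107 and 0.0531). For H2-Ab1, where the chosen set gave -0.09 at 4 h, the other sets gave -0.70 and -0.84 (both 0.0827). At 76 h they gave -0.37 and -0.33 and were not called (0.138 and 0.293), so the H2-Ab1 call there rests on the chosen set. In the mean over times, which includes the 4 h values, they gave -0.33 and -0.37 (0.0097 and 0.0152). The chosen sets of H2-Aa and Gbp2 carry the suffix Affymetrix gives to sets with probes that may match other transcripts, and those of H2-Ab1 and Ifi35 the suffix for sets shared by related transcripts. A further Ciita probe set gave a mean difference of -0.23 (adjusted p = 0.111), and one above the array median on 11 arrays gave 0.02, so the call for Ciita rests on 1 probe set.

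**Figure D2:**
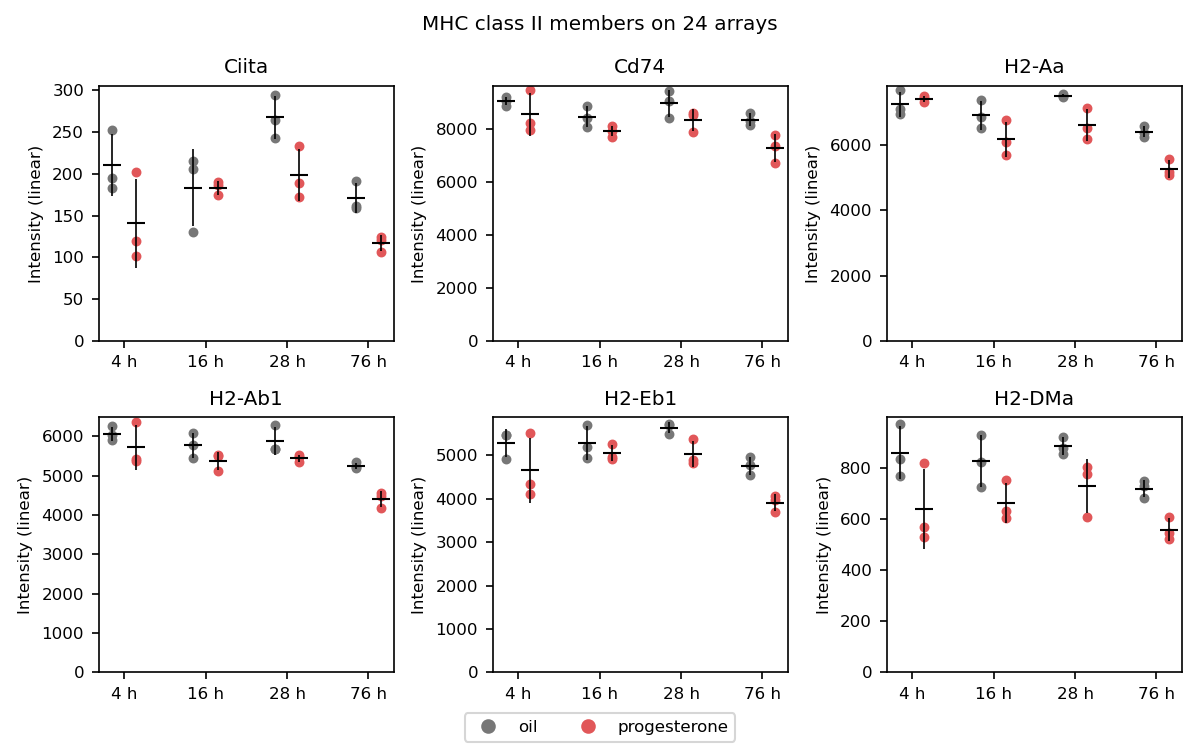
Linear intensity of the 6 MHC class II members on each of 24 arrays by hours after the first injection, with oil in grey, progesterone in red, and a black bar for the mean and SD of 3 arrays. At 76 h the red points lie below the grey ones in all 6 panels, and at 4 h 1 red point stands well above the other 2 in every panel but that of H2-Aa.

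Genes that supply peptide to MHC class I fell in the mean over times, while the gene of the class I light chain was not called. Psmb8, an inducible immunoproteasome subunit, spanned 1564 to 2216 (median 1802) on the 12 oil arrays and 1108 to 1914 (median 1519.8) on the 12 progesterone arrays, a mean difference of -0.30 ± 0.07 SE (adjusted p = 0.00493). Psmb9, its partner subunit, spanned 1229 to 1791 (median 1379) and 1027 to 1377 (median 1142), with -0.28 ± 0.05 SE (adjusted p = 0.000652), the smallest adjusted p among the members. The treatments overlapped, but for Psmb9 the progesterone median lay below the lowest oil array.

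Tap1, a subunit of the transporter that carries peptides into the endoplasmic reticulum, spanned 580.0 to 976 (median 687) with oil and 424 to 716 (median 586) with progesterone (mean difference -0.30 ± 0.08 SE, adjusted p = 0.00948). Its partner subunit Tap2 had a mean difference of -0.26 ± 0.06 SE (adjusted p = 0.00669) and Tapbp, tapasin, which bridges the transporter and class I, -0.14 ± 0.04 SE (adjusted p = 0.0249). The call for Tapbp held under 10 of 15 alternatives and without 18 of the 24 arrays in turn, and was lost with quantile normalization, with the mean of its probe sets, with a variance without trend, without the 76 h arrays and at an adjusted p under 0.01. At 28 h Tap1 read 976, 872 and 641 with oil and 553, 716 and 575 with progesterone, overlapping groups. Tapbp has a further probe set, which read -1.24 at 4 h and between -0.12 and -0.03 at the later times, and its mean difference over the 4 times was not called (adjusted p over probe sets 0.241).

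B2m, the class I light chain beta-2 microglobulin, read 11302, 11423 and 11466 with oil and 10653, 11206 and 11684 with progesterone at 76 h. Over 12 arrays it spanned 10976 to 11966 (median 11375) with oil and 10653 to 12138 (median 11138) with progesterone. The treatments overlapped at all 4 times and the mean difference was -0.02 ± 0.02 SE (adjusted p = 0.645). These levels lie near the top of the table, whose highest value was 15710.

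At 4 h 5 of the 6 class I genes had an unadjusted p under 0.05. Psmb8 read 1798, 1718 and 2108 with oil and 1171, 1108 and 1914 with progesterone there, and Tap2 826, 829 and 863 and 551, 557 and 697. The third progesterone array was the highest of its group in both, in the oil range for Psmb8 and below it for Tap2. Neither passed with all arrays (adjusted p = 0.148 and 0.0993). RNA control probes also moved at 4 h: the log2 ratio of the 3′ to the 5′ actin control was 0.59, 0.575 and 0.506 on the progesterone arrays and 0.437, 0.43 and 0.408 on the oil arrays. That of Gapdh was 0.253, 0.343 and 0.001 against 0.032, -0.094 and -0.174, so the third progesterone array overlapped the oil arrays in Gapdh and not in actin. Without that array 4 of the 6 class I genes had an unadjusted p under 0.05. The part of these ratios in the 4 h differences was not tested.

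Among signalling molecules and transcription factors, Irf8, which directs myeloid and B cell genes, had the lowest mean difference. It spanned 1242 to 1789 (median 1516) on the 12 oil arrays and 992 to 1553 (median 1205) on the progesterone arrays (-0.30 ± 0.06 SE, adjusted p = 0.00142). At 28 h it read 1734, 1789 and 1622 with oil and 1169, 1553 and 1223 with progesterone, without overlap, and at 76 h 1257, 1362 and 1517 and 992, 1173 and 1142, again without overlap. Neither time alone passed (adjusted p = 0.0835 and 0.0622). Its other probe set had a mean difference of -0.31 (adjusted p over probe sets 0.051).

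Irf1, which carries the interferon gamma signal to many of its targets, spanned 1670.0 to 2196 (median 1861) with oil and 1544 to 1936 (median 1688) with progesterone (-0.16 ± 0.04 SE, adjusted p = 0.00975). At 28 h its arrays read 2146, 2071 and 1812 with oil and 1546, 1768 and 1701 with progesterone, and the groups did not overlap. Irf7, the main amplifier of type I interferon production, spanned 474 to 706 (median 570.0) and 389 to 665 (median 497) (-0.23 ± 0.07 SE, adjusted p = 0.0274). At 76 h it read 522, 474 and 512 with oil and 392, 418 and 398 with progesterone, without overlap.

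Irf9 and Stat2 belong to the complex that binds the interferon-stimulated response element. Irf9 spanned 410.1 to 542 (median 452) with oil and 334 to 489.9 (median 408) with progesterone (-0.15 ± 0.05 SE, adjusted p = 0.041), and its difference was between -0.26 and -0.19 at the first 3 times and 0.07 at 76 h. Its call held without only 10 of the 24 arrays in turn, and that of Irf7 without 20. Stat2 spanned 104 to 166 (median 135) and 86.0 to 167 (median 119) and was not called (-0.16 ± 0.08 SE, adjusted p = 0.223).

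Neither RNA sensor passed at any time. Ifih1, which encodes the sensor MDA5, spanned 435 to 588 (median 487) with oil and 424 to 598 (median 519) with progesterone (0.05 ± 0.05 SE, adjusted p = 0.592). Ddx58, which encodes RIG-I, had a mean difference of -0.06 ± 0.04 SE (adjusted p = 0.418). The groups overlapped at every time for Ifih1 and at the first 3 times for Ddx58, whose 76 h progesterone arrays all lay above the oil arrays.

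Antiviral effectors had 1 call in the mean over times and 1 at 76 h. Ifi35, an interferon-induced leucine zipper protein, spanned 1492 to 2009.7 (median 1642) with oil and 1351 to 1700.2 (median 1483) with progesterone (-0.19 ± 0.05 SE, adjusted p = 0.0143), and its 2 other probe sets gave -0.25 and -0.17 (adjusted p over probe sets 0.0176 and 0.0284). Oasl1, an oligoadenylate synthetase-like protein that in mice restrains Irf7 translation, read 90.2, 81.7 and 81.6 with oil and 52.2, 62.0 and 60.4 with progesterone at 76 h. All progesterone arrays were lower, at 68.8% of oil (-0.54 ± 0.16 SE, adjusted p = 0.0169). At 4, 16 and 28 h its differences were -0.01, 0.13 and 0.18 with overlapping arrays.

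Classical interferon alpha and beta targets were among the effectors that were not called. Ifit1 spanned 118 to 208 (median 144) with oil and 98.3 to 189 (median 132) with progesterone (-0.16 ± 0.09 SE, adjusted p = 0.264). Bst2 spanned 226 to 437 (median 332) and 159 to 393 (median 284) (-0.26 ± 0.10 SE, adjusted p = 0.107). Both genes overlapped between treatments over all arrays, although at 76 h the progesterone arrays were the lower ones without overlap.

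The 8 remaining effectors, not called after progesterone at any time or in the mean (Ifit2, Ifit3, Oasl2, Oas2, Mx1, Mx2, Rsad2 and Usp18) had mean differences from -0.20 (Mx1) to 0.09 (Oasl2). They are an RNA-binding pair, oligoadenylate synthetases and a relative, dynamin-like GTPases, viperin and the enzyme that removes ISG15 from proteins. At 76 h Mx2 read 67.6, 48.9 and 51.9 with oil and 37.8, 40.2 and 31.0 with progesterone, the lowest difference of all members at that time (-0.62 ± 0.23 SE), with no overlap and an adjusted p of 0.0595. At 16 h the same gene read 66.7, 43.4 and 65.9 and 71.2, 88.4 and 74.1, so that the progesterone arrays were then the higher ones (0.43). It was above the array median on 7 of 24 arrays. At 76 h Usp18 read 306, 280.5 and 239 with oil and 207, 208 and 214 with progesterone, without overlap, and did not pass (adjusted p = 0.0571).

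All 4 GTPases had a mean difference below 0, and 2 of them were called. Igtp (Irgm3), an immunity-related GTPase, spanned 1009.8 to 1596 (median 1245) with oil and 821 to 1353 (median 1081) with progesterone (-0.23 ± 0.07 SE, adjusted p = 0.0319). At 76 h its arrays read 1090.0, 1249 and 1009.8 and 881, 1005 and 880.1, without overlap. Gbp3, a guanylate-binding protein, had a mean difference of -0.16 ± 0.05 SE (adjusted p = 0.0383), and Gbp2 and Irgm1 had -0.14 and -0.13 (adjusted p = 0.117 and 0.229). The call for Igtp held without 14 of the 24 arrays in turn and that for Gbp3 without 10. A further Gbp2 probe set was lower at 76 h (-0.35, adjusted p over probe sets 0.0208) while the chosen one was not called there (-0.31, adjusted p = 0.0778).

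**Figure D3:**
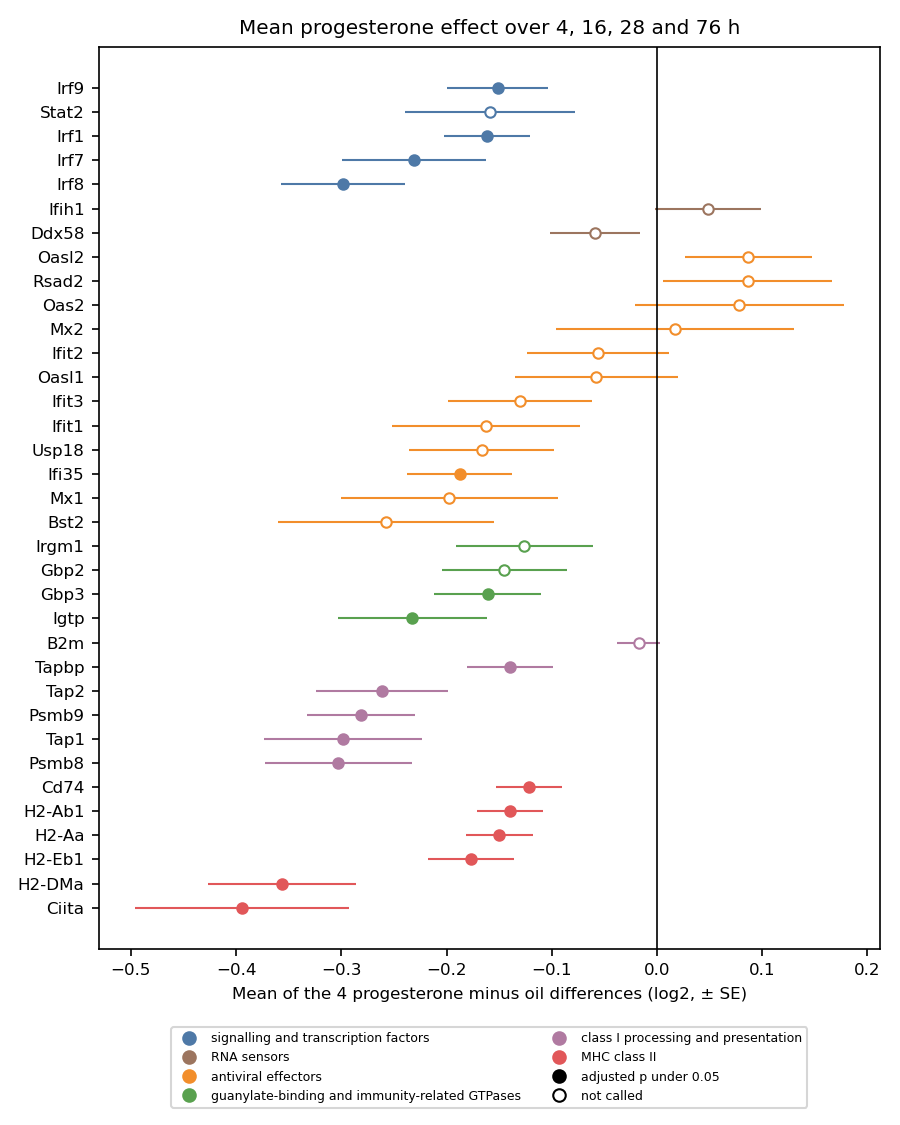
Mean of the 4 log2 differences between progesterone and oil for each measured member, with its standard error, coloured by role. Filled points (18 of 35, all below 0) passed at an adjusted p under 0.05, and the antiviral effectors are mostly open, from -0.26 for Bst2 to 0.09 for Oasl2.

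Whether the progesterone effect changed with time was tested for each member, and none passed (moderated F-test of limma, 4 of 35 with an unadjusted p under 0.05, against 25.2% of all genes), where 9.98% of all genes were called. The smallest p belonged to Gbp3 (adjusted p = 0.0601), Oasl1 (0.0879), H2-Aa (0.0945), Mx2 (0.12) and Irf9 (0.27). Gbp3 read 798, 725 and 833 with oil and 857, 957 and 838 with progesterone at 4 h, where the progesterone arrays were the higher ones. At 28 h it read 943, 846 and 741 and 584, 664 and 729, where they were the lower ones, and neither group pair overlapped.

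Among the oil groups alone, 1 of 35 members differed between times, beside 12.2% of all genes. It was Oasl2, an oligoadenylate synthetase-like gene, which read 289.7, 268 and 313 at 4 h, 245, 227 and 229.9 at 16 h, then 217, 201 and 163 at 28 h and lastly 199, 234 and 253 at 76 h (adjusted p = 0.0146). The 4 h oil arrays were the highest. The next smallest p were those of Tap2 (adjusted p = 0.0617), H2-Aa (0.0621), Rsad2 (0.0633) and Ciita (0.0949). Ciita read 295, 264 and 243 on the 28 h oil arrays against 205, 215 and 130.0 at 16 h, and Rsad2, which encodes viperin, read 295, 342 and 314 at 16 h against 226, 211 and 188 at 28 h.

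The choice of oil arrays moved the counts. With the oil arrays of the other 3 times as controls, 23 of 35 members were called lower at 76 h, all 6 of class II among them, beside 32.5% of all genes called and 15.7% called lower. At 4 h the same change of controls called Irf9, Bst2, Psmb8 and Ciita lower and Oasl2 higher, beside 6.53% of all genes called and 3.46% called lower. At 16 h it called Irf8, Psmb9, Tap1, Tapbp and H2-Aa lower, beside 4.52% called and 2.23% called lower. At 28 h no member was called in this way by limma, beside 0.875% called and 0.422% called lower.

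Several members that fell are neighbours in the genome. In the gene order of RefSeq (GRCm38.p6), Tapbp, H2-DMa, Psmb9, Tap1, Psmb8, Tap2, H2-Ab1, H2-Aa and H2-Eb1 fall within a stretch of 26 protein-coding genes in the MHC. All 9 were lower in the mean over times. The neighbours Ifit2, Ifit3 and Ifit1 and the pair Oasl2 and Oasl1 had no call there, and of the neighbours Gbp3 and Gbp2 the first had one. This is a description of genes chosen with results known, and it includes genes of both the class I and the class II pathway.

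Promoter windows of 300 bases (250 before to 50 after the gene start) were found in RefSeq for 29 of the 37 members, 27 of them tested and 14 called in the mean over times. The Y box, CTGATTGG on either strand, stood in 5 of the 29 and in 4.1% of all 32851 windows. Those 5 genes (Irf8, Psmb9, Tap1, H2-Aa and H2-Eb1) were all called. The interferon-stimulated response element, GAAA followed after any 2 bases by GAAA, on either strand, stood in 13 of the 29 and in 3.44% of all windows, and 2 of the 12 tested genes with it were called (Gbp3 and Igtp). The gamma-activated site, TTCNNNGAA, whose letters read the same on both strands, stood in 7 and in 8.3% of all windows, and 5 of the 7 were called (Irf1, Irf8, Ifi35, Igtp and Psmb8). Some windows hold more than 1 of these motifs. They were searched with the calls known, and a match is a description of the letters only.

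Other genes of these pathways were taken from 5 further lists, 87 of whose 104 genes were tested. In the mean over times 20 were lower and none was higher, where 12.5% of all genes were called and 6.65% called lower. The median log2 difference was -0.11 beside -0.01 over all genes. The counts were 6 of 10 for other class II genes, 3 of 10 for other class I genes (H2-M3, Psmb10 and Psme1) and 9 of 39 for other interferon-stimulated genes. They were 1 of 13 for sensors of nucleic acids (Dhx58, a RIG-I-like receptor) and 1 of 15 for interferons, receptors and kinases (Irf5, a transcription factor of inflammatory genes). Both of these last shares were near the share of all genes called lower.

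Among other class II genes at 76 h, H2-Ob, a chain of the DM inhibitor DO, read 642, 831 and 779.9 with oil and 479, 611 and 479 with progesterone, 69.6% of oil (-0.52 ± 0.15 SE, adjusted p = 0.0204). H2-DMb2, the partner chain of H2-DMa, read 1022, 1126 and 989.6 and 720.1, 831 and 747 (-0.45 ± 0.15 SE, adjusted p = 0.0343). H2-Ea, a further class II alpha chain gene, read 6398, 6865 and 6708 and 5371, 5929.6 and 5662 (-0.24 ± 0.07 SE, adjusted p = 0.0205). All 3 were lower on each progesterone array than on any oil array. Ctss, cathepsin S, which degrades the invariant chain, read 4346, 4655 and 4767 and 3757, 4239 and 4019.8, also without overlap (-0.20 ± 0.07 SE, adjusted p = 0.0486), and its call held without 10 of the 24 arrays in turn.

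Of the other interferon-stimulated genes 3 of 39 were lower at 76 h and 1 of 39 at 28 h, where 6.67% and 0.592% of all genes were called lower, so the share at 76 h was near the background and that at 28 h was a single gene. Ifi27, a small membrane protein, read 5213, 4826 and 4866 with oil and 3542, 3736 and 3981 with progesterone at 76 h (-0.41 ± 0.08 SE, adjusted p = 0.000583), while its difference was between -0.06 and 0.07 at the earlier times. Ifitm1, a membrane protein that blocks virus entry, read 641, 678 and 718 and 481, 573 and 477 (-0.42 ± 0.11 SE, adjusted p = 0.0107). Its progesterone arrays were all below the oil arrays, as were those of Ifi27.

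Sp100, a nuclear body protein, read 597, 572 and 576 and 425, 396 and 489.6 at 76 h (-0.42 ± 0.13 SE, adjusted p = 0.0317) and was not called against the oil arrays of other times. At 28 h the GTPase gene Ifi47 read 1976, 1647 and 1907 with oil and 1131, 1432 and 1638 with progesterone, just without overlap (-0.41 ± 0.11 SE, adjusted p = 0.047), a call that held without 6 of the 24 arrays in turn. In the mean over times Slfn2 (-0.35), Ifitm1 (-0.33), Herc6 (-0.32) and Nlrc5 (-0.31) had the largest differences among those called in that list, with adjusted p from 0.00026 (Ifitm1) to 0.0201 (Nlrc5). Slfn2 is known from T cell quiescence, Herc6 attaches ISG15 in mice, and Nlrc5 is the transactivator of class I genes.

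Pan-leukocyte, B cell and T cell markers were mostly lower after progesterone, as the members were, and macrophage markers were not. All 6 pan-leukocyte markers were called lower in the mean over times (median -0.30), and 3 of 6 at 76 h (median -0.28). At 4, 16 and 28 h none was called, with medians of -0.31, -0.26 and -0.28. Without the third 4 h progesterone array 4 of 6 were called lower at 4 h (median -0.46). Their summed intensity at 76 h ranged from 16304 to 18107 on the progesterone arrays and from 19868 to 21823 on the oil arrays, without overlap. Of the B cell markers 5 of 7 were lower in the mean over times and 4 of 7 at 76 h (median -0.47), where their summed intensity was 4869 to 5999 with progesterone and 6714 to 8282 with oil.

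T cell markers were lower for 6 of 8 in the mean over times, and at 76 h 4 of 8 were lower and 1 higher (median -0.48), with summed intensities of 5453 to 5607 against 6210 to 6658 with oil. Macrophage markers were not lower: none of 10 was called lower in the mean over times or at 76 h, and 1 was higher in each, with a median of 0.05 at 76 h and 0.37 at 28 h. Of these 10 markers 8 also differed between the oil groups, beside 12.2% of all genes. Their summed intensity at 76 h was 14764 to 16089 with progesterone and 13872 to 15401 with oil. Of the dendritic cell markers 1 of 7 was called lower in the mean over times and 1 at 76 h, where their summed intensity was 1231 to 1288 with progesterone and 1571 to 1654 with oil. Natural killer cell markers had 1 of 6 called lower in the mean over times and 1 at 76 h. Of 4 plasma cell markers 2 were called lower and 1 higher in the mean over times and at 28 h, and 1 higher at 76 h. No listed marker was at 0, but Xcr1, a marker of cross-presenting dendritic cells, was above the array median on 0 of 24 arrays. The part of a change in leukocyte content in the lower class II, class I and interferon-stimulated genes was not tested.

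Epithelial markers went the other way, with 8 of 9 luminal markers (median 1.53) and 6 of 6 basal markers (median 2.00) higher at 76 h. The basal list includes Krt15, Krt17 and Trp63, which were low on many arrays. At 28 h no luminal marker and 3 of 6 basal markers were called higher. Of 6 endothelial markers 3 were lower at 76 h (median -0.39). Fibroblast markers were higher for 5 of 6 in the mean over times (median 0.19), 3 of 6 at 28 h (median 0.38) and 4 of 6 at 76 h (median 0.23). All 6 fibroblast markers also differed between the oil groups, beside 12.2% of all genes. The part of these epithelial, endothelial and fibroblast shifts in the differences of the members was not tested.

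**Figure D4:**
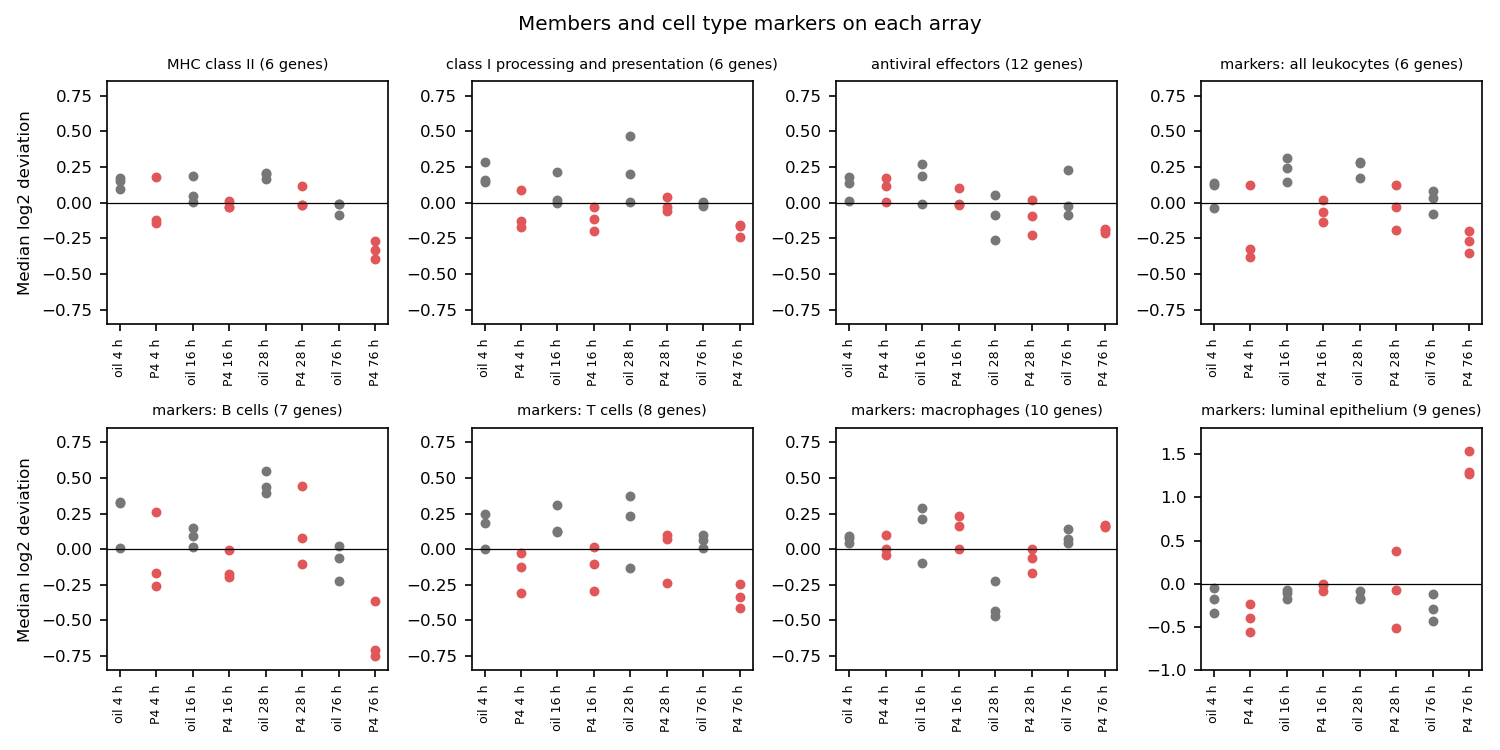
Median log2 deviation from the mean over 24 arrays for 3 member groups and 5 marker lists on each array, with oil in grey and progesterone in red, the luminal panel on a wider scale. The third 4 h progesterone array is the high red point in the class II, leukocyte and B cell panels, and at 76 h the red points are low in the class II, class I, leukocyte, B cell and T cell panels, above the oil arrays in the macrophage panel, and high in the luminal one.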

How the data were processed

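Per the labels, each of the 24 arrays held pooled mammary RNA of 5 mice, extracted with Trizol and hybridised to an Affymetrix Mouse Genome 430 2.0 array. The authors deposited 1 table of linear intensity values for 45101 probe sets, and the software that summarised and normalised them is not given in the sources used here. A file of platform annotation of 2016 gave 34945 probe sets 1 symbol, 932 several and 9160 none, besides 64 controls. Per gene the single-symbol probe set with the highest mean log2 value was used. The array medians spanned 0.16 on the log2 scale, so no further normalization was made. Values under the 10th percentile (7.38) were raised to it, log2 was taken, and the 12336 genes above the array median on at least 3 arrays were tested.

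Samples were grouped by treatment and time from their titles. One model over all 8 groups (16 residual degrees of freedom) was fitted in limma 3.58.1 (R 4.3.3, statmod 1.5.0) with an intensity trend. Progesterone was compared with oil at each time and over the mean of the 4 differences, and moderated F-tests asked whether that difference, or the oil level, changed with time. P-values were adjusted over all tested genes (Benjamini-Hochberg), with calls made at adjusted values under 0.05. Adjusted p "over probe sets" come from the same fit on all probe sets. The fit was tested on simulated data.

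The members and lists were chosen with earlier results of these data known. Every member is accounted for. Array values are given for up to 4 called members per role and time, for 15 members named in the rule (one of which, Isg15, was not analysed), for the 5 members with the smallest p in each F-test, and for up to 4 called genes per further list and time. Other genes with array values (H2-DMa, Irf8, Psmb9, Tap2, Gbp3, Mx2, Usp18, Oasl2 and Rsad2 where outside these) were picked after their values were seen. Alternatives covered the filter, floor, normalization, probe set choice, variance model, array weights, choice of oil arrays, a replicate block, subsets of times, single arrays and the threshold. Arrays give no read depth, and 3 arrays per group limit the precision.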

Additional observations from a re-analysis of the deposited data

Results flagged for a closer look

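The progesterone effect on Ifi27, a gene of a further list, differed between times (moderated F-test of limma, adjusted p = 0.0204). Its log2 differences were -0.06, 0.00 and 0.07 at 4, 16 and 28 h and -0.41 at 76 h, where all 3 progesterone arrays were lower than all 3 oil arrays. The test missed the threshold without the first oil array or the first or second progesterone array of 76 h in turn. It also missed it with the mean of the gene's probe sets, with a variance without trend and without the 76 h arrays, and did not pass at 0.01.

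The effect on Lgmn, which encodes the lysosomal protease legumain, also differed between times (adjusted p = 0.0479), with log2 differences of -0.39, -0.09, 0.39 and 0.20 at 4, 16, 28 and 76 h. No single time was called, and the oil groups themselves differed for this gene (adjusted p = 0.0102). The call between times held under 8 of 15 alternatives and without 6 of the 24 arrays in turn.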

How the results depend on the processing

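Every member that was called kept its direction under all alternatives and without any single array. In 316 pairs of a called member and an alternative the call held and in 48 it was lost, and with single arrays left out it held in 518 and was lost in 58. Irf8, Psmb8, Psmb9 and H2-DMa kept their calls in the mean over times under all 15 alternatives and without each of the 24 arrays. The count of 18 in that mean was 4 without the 76 h arrays and 10 at an adjusted p under 0.01. Without the 28 h arrays it was 15, beside 13.1% of all genes called. With quantile normalization it was 12, and the calls for Irf7, Irf9, Gbp3, Igtp, Tapbp and H2-Aa were lost. That setting called 867 of all genes higher and 697 lower in the mean, in place of 719 and 820. Centring arrays on their medians moved the lower share of all calls in the mean over times from 53.3% to 64.3%, and quantile normalization moved it to 44.6%. At 16 h that share was 65.8%, and 76.5% with centring, 75.9% with log2 of the value plus 16. At 4 h it was 30.4%, and 18.5% with quantile normalization. No scaling moved the median of all genes by over 0.1.

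The 5 calls at 76 h became 9 with quantile normalization, 9 without the 28 h arrays, 14 with only the 6 arrays of 76 h, 23 against oil arrays of other times, 2 at an adjusted p under 0.01 and 12 under 0.1. Calls over all genes at 76 h moved too, from 17.7% to 20.2% without the 28 h arrays and 32.5% against the other oil arrays. Quantile normalization called 1288 genes higher and 1146 lower, in place of 1359 and 823. Here and in the next paragraph, a count with no share of all genes beside it describes the setting, not the members. The calls at 4 h numbered 5 against the oil arrays of other times, 1 without the 28 h arrays and 1 under 0.1, those at 16 h numbered 5 against the other oil arrays, and those at 28 h numbered 4 under 0.1. Array weights gave 14, 25, 7 and 15 calls at the 4 times, 16 for the change of the effect with time and 27 for the oil groups, where they called 13.2% to 67.1% of all genes, and the cause was not tested. They also turned the sign of Jak1, a kinase of the interferon receptors, at 16 h (0.19 in place of -0.03). For the change with time quantile normalization, a variance without trend and leaving out 28 h gave 1 call each, and a threshold of 0.1 gave 3. For the oil groups quantile normalization and averaging the probe sets of a gene gave 2 calls each, and thresholds of 0.01 and 0.1 gave 0 and 6. Against the other oil arrays the median difference of the interferon-stimulated members was -0.091 at 16 h and -0.302 at 76 h. In the main fit it was -0.184 and -0.1765. That of class II was -0.05 at 28 h and -0.46 at 76 h, in place of -0.18 and -0.28.

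Leaving out single arrays gave 0 to 6 calls at 4 h (6 without the third progesterone array of 4 h, 1 without the third oil array of 28 h), 0 to 1 at 16 h (1 without its first progesterone array) and 0 to 4 at 28 h (4 without the third oil array of 28 h, 2 without its progesterone array 2 or 3). It gave 2 to 8 calls at 76 h (2 without its first progesterone array, 3 without its second oil array, 8 without the third progesterone array of 4 h), 13 to 20 in the mean over times, 0 to 2 for the change with time (2 without the first progesterone array of 16 h or the third oil array of 28 h, 1 without progesterone array 2 or 3 of 28 h) and 1 to 4 for the oil groups. The count for the oil groups was 4 without the third progesterone array of 4 h and 3 without the third oil array of 28 h. It was 2 without the second oil array of 4 h, the third oil array, the first progesterone array or the third progesterone array of 16 h, the first oil array or progesterone array 2 or 3 of 28 h, or the first oil array of 76 h. The class II median at 4 h ran from -0.245 to -0.084, the former without the third progesterone array of 4 h. Calls at 76 h were lost for Oasl1 without its first oil or first progesterone array, for H2-Aa with quantile normalization and for H2-Ab1 with the mean of its probe sets. Cd74 lost its call at 76 h with no filter on low values, with quantile normalization and with a variance without trend (adjusted p 0.0563, 0.0502 and 0.093), and at an adjusted p under 0.01. Ciita lost its call in the mean over times with the mean of its probe sets.

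The replicate block gave 0 calls at 4, 16 and 28 h, 5 at 76 h and 17 in the mean over times. The residuals of arrays with the same number correlated between -0.02 and 0.35 within a time, not above 0.1 in every pair. Arrays with different numbers were not compared in this way, so whether the numbers pair the arrays was not settled.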
